A study of Equus caballus with 25 samples.

Results

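CD80 (ENSECAT00000002157) and CLEC7A (ENSECAT00000011489) are 2 of the 7238 equine transcripts on an immune and mucosal gene array, and they were chosen by their measured levels in these arrays, because both were overexpressed in mild equine asthma compared with controls. CD80 is a membrane protein of antigen-presenting cells. It binds CD28 on T cells, which adds the second signal that a T cell needs beside antigen, and it binds CTLA4, which restrains the T cell instead. CLEC7A, also called dectin-1, is a C-type lectin receptor of macrophages, dendritic cells and neutrophils. It binds beta-glucan of fungal cell walls and signals through the kinase SYK to NF-kB. Moldy hay and bedding are known sources of such material in stables, and alveolar macrophages are the main resident immune cells recovered by lavage of healthy lungs.

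Cells of bronchoalveolar lavage (BAL) fluid were collected from 25 horses with naturally occurring disease or none, 1 array per horse. The controls (CTRL, n = 7) were clinically healthy standardbred horses. Horses with mild equine asthma (MEA, n = 10, IAD in the sample labels, diagnosis of inflammatory airway disease) were about as old as the controls and mostly saddle horses. Horses with severe equine asthma (SEA, n = 8, RAO in the labels, recurrent airway obstruction) were older than both and also mostly saddle horses. Age, breed and disease therefore cannot be told apart in SEA compared with CTRL, nor breed and disease in MEA compared with CTRL. In SEA compared with MEA, age and disease cannot be told apart. No treatment was compared, all were clinical cases or volunteered horses of 1 hospital, and the BAL cells were a mixture that macrophages dominated in CTRL and MEA and neutrophils in SEA. In such bulk samples, more cells of a type and more RNA per cell cannot be told apart.

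Both transcripts were read by a 60-base probe, spotted 2 times on every array. The probes are shown because every value given for the 2 genes rests on them, and each belonged to 1 transcript of the array. The capitals mark a stop codon in the last 3 bases, in the reading frame of the first base; the CD80 probe had 0 stop codons in that frame.
CD80: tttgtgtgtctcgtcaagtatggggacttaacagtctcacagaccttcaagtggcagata
CLEC7A: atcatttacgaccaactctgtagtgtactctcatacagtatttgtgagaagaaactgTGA
The CLEC7A probe thus reads as the end of an open frame, whereas the CD80 probe reads as an uninterrupted one. GC bases made up 45% of the CD80 probe and 36.67% of the CLEC7A probe. Levels of the 2 genes are therefore compared between horses and not with each other. Both spots of both probes were well above background on all 25 arrays, with 0 saturated spots. Between duplicate spots, the median gap on the log2 scale was 0.14 for CD80 and 0.095 for CLEC7A. The largest gap was 1.46, for CLEC7A in SEA replicate 8, and the CLEC7A spots correlated at r = 0.69 in SEA.

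Levels are given as normalized log2 intensity, on which a step of 1 is a doubling. CD80 lay between 6.13 and 8.36 in the CTRL horses, with a median of 7.05 and a mean of 7.15 ± 0.80 (SD, n = 7). In MEA-affected horses it lay between 7.01 and 10.03, with a median of 8.77 and a mean of 8.79 ± 0.89 (SD, n = 10). In SEA-affected horses it lay between 7.51 and 9.59, with a median of 8.50 and a mean of 8.38 ± 0.76 (SD, n = 8). The groups overlapped. CD80 was above the highest CTRL horse in 8 of 10 MEA-affected horses and in 5 of 8 SEA-affected horses. SEA replicates 5, 6 and 7 formed a low set between 7.51 and 7.59, within the range of the controls, while the other SEA-affected horses lay at 8.49 or above.

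CLEC7A spread more widely among the controls. It lay between 4.28 and 7.94 in CTRL, with a median of 7.40 and a mean of 6.87 ± 1.41 (SD, n = 7). CTRL replicates 4 (4.28) and 1 (5.56) were low and the other controls lay at 7.24 or above. The value of CTRL replicate 4 lay below the limit of 4.5 used in the intensity filter. In MEA the level lay between 6.58 and 9.92, with a median of 8.44 and a mean of 8.37 ± 0.84 (SD, n = 10), and 9 of 10 horses were above the highest control. In SEA it lay between 8.12 and 9.65, with a median of 8.72 and a mean of 8.81 ± 0.56 (SD, n = 8). All 8 SEA-affected horses were above all 7 controls, although the lower of the CLEC7A spots of SEA replicate 8, the lowest of them, read 7.39, within the range of the controls. Such a separation of SEA above CTRL was seen in 1.52% of the 4930 transcripts tested.

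**Figure D1:**
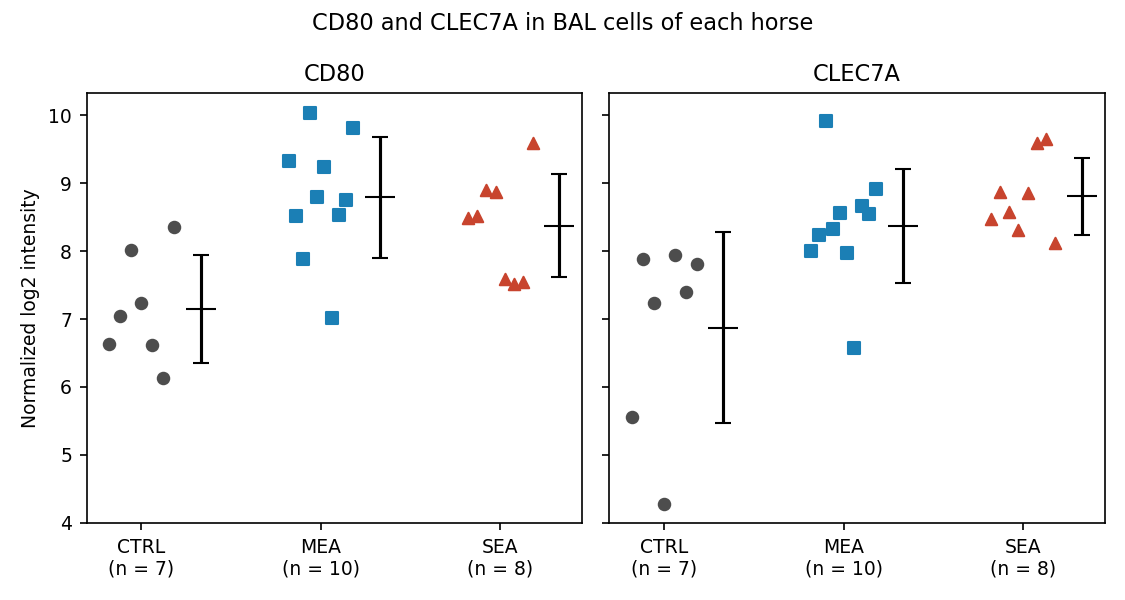
Normalized log2 intensity of CD80 (left) and CLEC7A (right) in each horse, by group, with the mean and SD of the group as a bar beside the points. CD80 was higher than the highest control in 8 of 10 MEA-affected and 5 of 8 SEA-affected horses, and CLEC7A in 9 of 10 and 8 of 8.

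In MEA compared with CTRL, the contrast for which the 2 genes were chosen, CD80 was higher by 1.64 on the log2 scale (SE 0.39), a fold of 3.12. CLEC7A was higher by 1.5 (SE 0.50), a fold of 2.83. These values are a description, and no p is given for them. Both members were among the 159 transcripts called higher in MEA (adjusted p below 0.1 and a fold of at least 1.5 in limma, 3.23% of those tested), with the second and the third largest difference, and nothing is read from these calls. XG, a blood group glycoprotein, stood just before them at 1.67 and FAS, a death receptor, just after them at 1.43. The members were chosen for a rise in this contrast, which favors a high place, so this order is not read as a result. The difference in CLEC7A was 1.07 without CTRL replicate 4 and 0.88 after another background correction (normexp), and that in CD80 was 1.22 after the latter.

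SEA compared with CTRL was not the contrast of choice, but it shares the 7 CTRL arrays with it, so that it is not independent of the choice. CD80 was overexpressed in SEA by 1.23 (SE 0.38, 95% interval 0.42 to 2.03), a fold of 2.34, with an adjusted p of 0.0282 in limma. CLEC7A was overexpressed by 1.93 (SE 0.50, 95% interval 0.88 to 2.98), a fold of 3.82, with an adjusted p of 0.0158 in limma. Both members were thus called higher in SEA, where 15.9% of the transcripts tested were called higher. By size of difference CLEC7A stood at place 99 and CD80 at place 318 of these 783 transcripts. The difference in CLEC7A was 1.21 with normexp and 1.5 without CTRL replicate 4, and both genes stayed past the call limits in each case.

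The rise did not pass the test for going further in SEA for either gene. SEA minus MEA was -0.42 for CD80 (SE 0.38, 95% interval -1.2 to 0.37, adjusted p 0.54 in limma) and 0.43 for CLEC7A (SE 0.33, 95% interval -0.26 to 1.13, adjusted p 0.462 in limma). The estimates point in opposite directions. The intervals leave room for a CD80 level in SEA up to 0.37 above that in MEA and for a CLEC7A level up to 1.13 above it. The order of mean levels was therefore CTRL, SEA and MEA for CD80 and CTRL, MEA and SEA for CLEC7A, in which the last 2 groups of each did not differ beyond their spread. No SEA-affected horse was above the highest MEA-affected horse in either gene. For CLEC7A this rests on MEA replicate 3 (9.92). The next horse, MEA replicate 10 (8.91), lay below SEA replicates 6 and 7 (9.59 and 9.65). Without MEA replicate 3, SEA minus MEA for CLEC7A was 0.61 (adjusted p 0.211 in limma). In this comparison 1.32% of the transcripts were called higher in SEA and 0.73% lower.

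**Figure D2:**
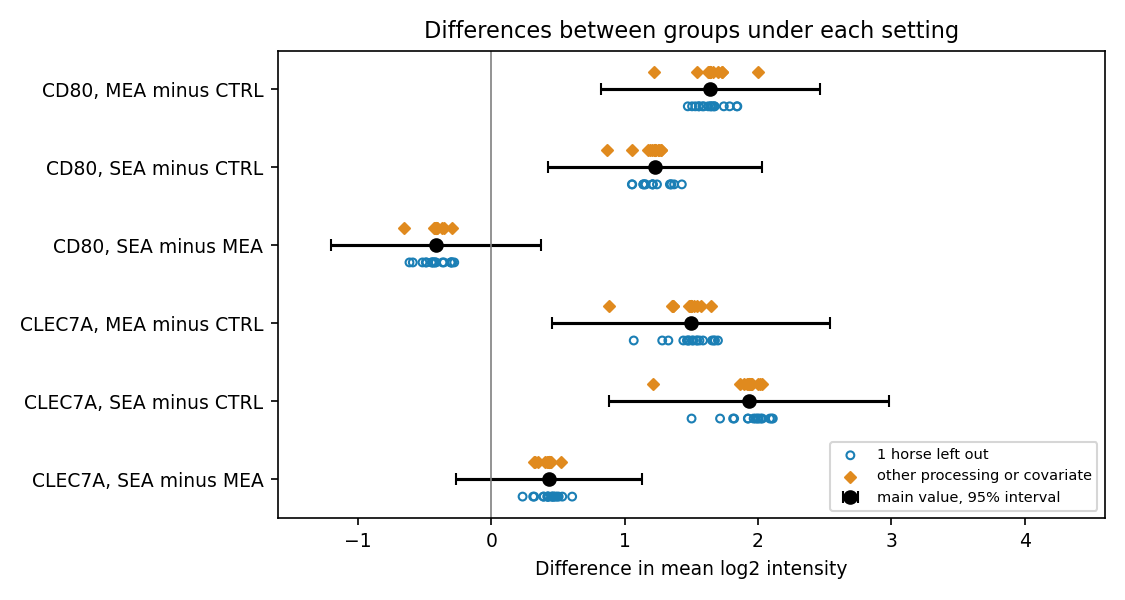
Differences in mean log2 intensity between groups for CD80 and CLEC7A: black points with 95% intervals are the values reported, orange diamonds the values under other processing or covariates, and blue circles the values with 1 horse left out. The differences from CTRL lie above 0 under every setting drawn, and the intervals of SEA minus MEA include 0.

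The 25 arrays lay on 4 slides, and each slide held all 3 groups. CD80 was higher in MEA than in CTRL by 2.08, 2.48 and 2.17 on slides 1 to 3 and by 0.04 on slide 4, which held 1 control, the highest for CD80. SEA minus CTRL for CD80 was 1.65, 1.52, 0.79 and 1.23 on slides 1 to 4. For CLEC7A, MEA minus CTRL was 1.4, 2.33, 0.66 and 0.72, and SEA minus CTRL 1.75, 2.47, 2.05 and 0.31. Each of these within-slide differences was above 0. SEA minus MEA changed sign between slides, from -1.39 on slide 3 to 1.18 on slide 4 for CD80 and from 1.39 to -0.41 on the same slides for CLEC7A. A slide held between 1 and 5 arrays of a group, so these values have no test of their own. With the slide as a block, SEA minus CTRL was 1.26 for CD80 (adjusted p 0.0187 in limma) and 1.89 for CLEC7A (adjusted p 0.0206 in limma).

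**Figure D3:**
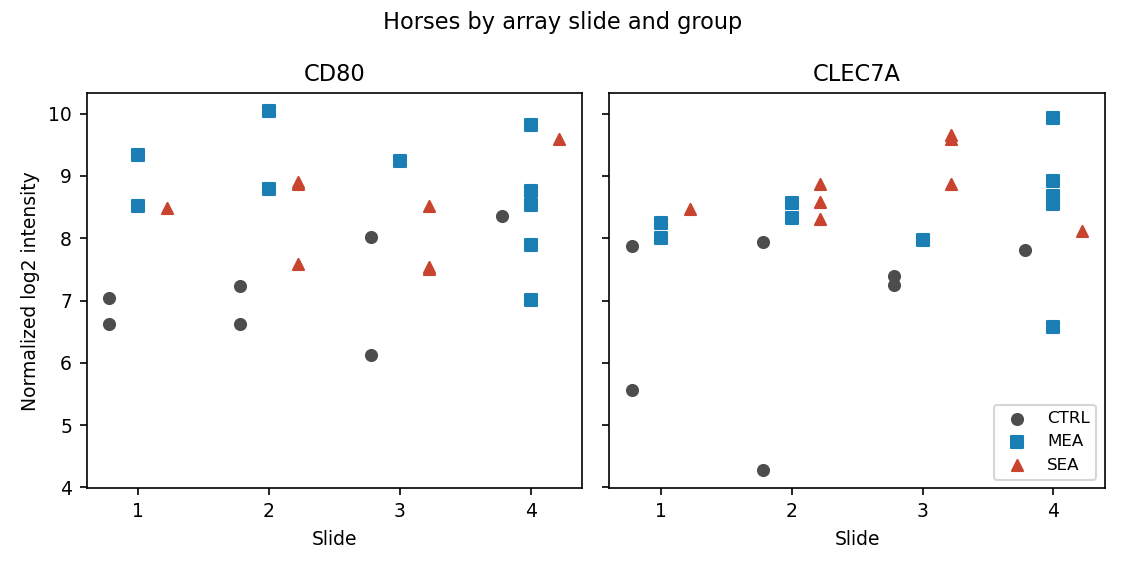
Normalized log2 intensity of CD80 (left) and CLEC7A (right) by slide, with CTRL as grey circles, MEA as blue squares and SEA as red triangles. The group means of MEA and SEA lay above that of CTRL on each slide for both genes, by 0.04 at the least.

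In MEA, 8 of 10 horses were above all controls in both, replicate 3 in CLEC7A alone, and replicate 7 in neither. In SEA, 5 of 8 horses were above all controls in both, and replicates 5, 6 and 7 in CLEC7A alone. These counts follow largely from the counts of each gene alone. Among the horses of a group, Pearson's r between CD80 and CLEC7A was 0.10 in CTRL (n = 7, exact permutation p 0.855, adjusted 0.855; Spearman's rho -0.21, exact p 0.662, adjusted 0.744). It was 0.27 in MEA (n = 10, permutation p 0.44, adjusted 0.566; rho 0.04, permutation p 0.918, adjusted 0.918). The value in MEA depended on single horses: it was -0.53 without replicate 7, lowest in both genes, and 0.71 without replicate 3, highest in CLEC7A.

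In SEA the relation between the 2 genes was negative, though not under every setting past the limit. SEA replicate 8 had the highest CD80 (9.59) and the lowest CLEC7A (8.12), and SEA replicates 6 and 7 had the highest CLEC7A (9.59 and 9.65) with low CD80 (7.51 and 7.54). Pearson's r was -0.88 (n = 8, two-sided exact permutation p 0.00313, adjusted 0.0281 over the 9 relations examined) and rho was -0.81 (exact p 0.0218, adjusted 0.0653). Without replicates 6 and 7, the farthest from the median, r was -0.82 (n = 6). With any 1 horse left out r lay between -0.95 and -0.85, and the adjusted exact p was above 0.05 in 6 of the 8 cases, up to 0.143 without replicate 8. The relation also depended on 1 pair of spots. The CLEC7A spots of replicate 8 read 8.85 and 7.39, and with the first spot of each probe alone, an alternative added after the data were seen, r was -0.58 (adjusted exact permutation p 0.317), against -0.91 with the second spot alone (0.00156). With the share of spots well above background removed from both genes, r was -0.80 and no longer passed the limit (adjusted approximate permutation p 0.257). With slide means removed r was -0.88, but replicates 1 and 8 were alone on their slides, so this value rests on the 3 horses each of slides 2 and 3. Whether r differed between the groups was not tested.

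**Figure D4:**
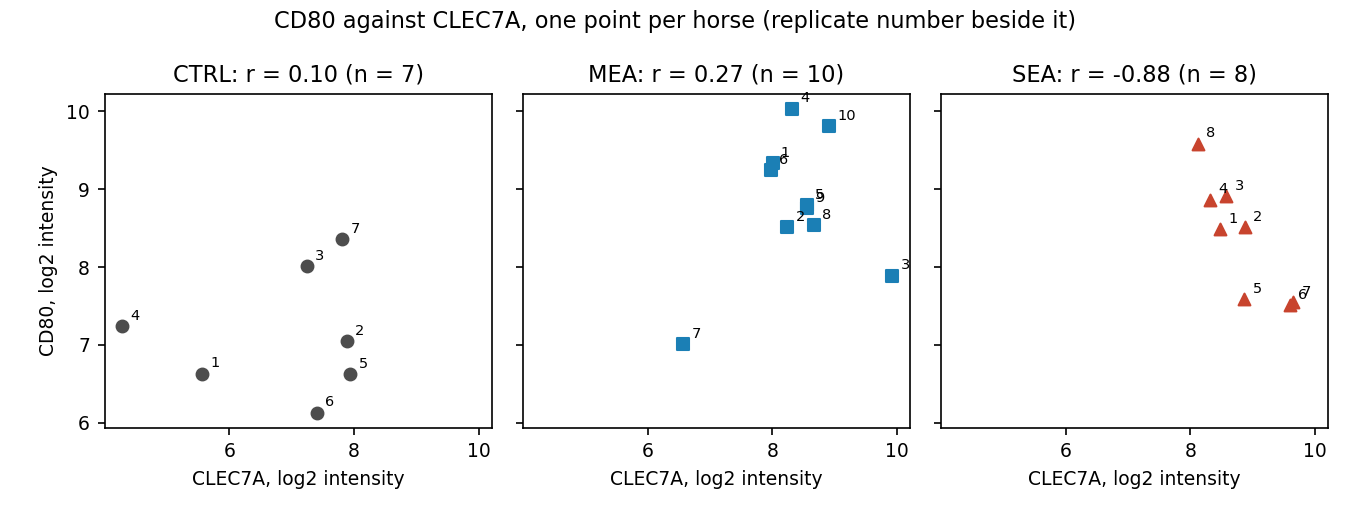
CD80 against CLEC7A, both as normalized log2 intensity, 1 point per horse with its replicate number, in CTRL (left), MEA (middle) and SEA (right). In SEA the points fall from replicate 8 at the upper left to replicates 6 and 7 at the lower right (r = -0.88), while r was 0.10 in CTRL and 0.27 in MEA.

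The percentage of macrophages among BAL cells was available for each horse from the cytology of the study. Its ranges did not overlap between the groups, so relations were taken within groups only. In SEA, where macrophages were fewest, CD80 was lower in horses with more macrophages (r = -0.73, n = 8, exact permutation p 0.0349, adjusted 0.105; rho -0.83, exact p 0.0154, adjusted 0.0653). CLEC7A was higher in horses with more macrophages (r = 0.78, n = 8, exact permutation p 0.0189, adjusted 0.0852; rho 0.81, exact p 0.0218, adjusted 0.0653). Neither relation passed 0.05 after adjustment. In SEA nearly all other counted cells were neutrophils. More macrophages therefore cannot be told apart from fewer neutrophils in these relations. Without SEA replicates 6 and 8, whose macrophage percentages were farthest from the median, r fell in size to -0.51 and 0.53 (n = 6), so that both relations rest in part on these horses. With slide means removed, r was -0.50 for CD80 and 0.32 for CLEC7A, again from the horses of slides 2 and 3 alone.

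In the other groups the relation to macrophage percentage was weaker or ran the other way. In MEA, r was -0.15 for CD80 (n = 10, permutation p 0.689, adjusted 0.775; rho -0.16, permutation p 0.657, adjusted 0.744) and 0.31 for CLEC7A (n = 10, permutation p 0.388, adjusted 0.566; rho 0.55, permutation p 0.101, adjusted 0.216). In CTRL, r was -0.60 for CD80 (n = 7, exact permutation p 0.152, adjusted 0.341; rho -0.36, exact p 0.426, adjusted 0.639) and -0.50 for CLEC7A (n = 7, exact permutation p 0.242, adjusted 0.435; rho -0.67, exact p 0.12, adjusted 0.216). Nearly all cells of the controls were macrophages, and their percentages covered a narrow range. The value for CD80 in CTRL was 0.05 without CTRL replicate 7. With macrophage percentage removed from both genes in SEA, an alternative added after the data were seen, r between CD80 and CLEC7A was -0.73 (adjusted approximate permutation p 0.118).

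The transcripts whose levels were most like those of each member between horses were found after the group means were subtracted, over 25 horses, as a description. For CD80 they were ENSECAT00000000090 (r = 0.79), SLC39A10, a zinc importer (0.72), ENSECAT00000012496 (0.71), LAMP3, a lysosomal protein used as a marker of mature dendritic cells (0.69), and ENSECAT00000026568 (0.67). LAMP3 followed CD80 within SEA (r = 0.87) and MEA (0.77) more closely than in CTRL (0.28). This order was not particular to LAMP3. SLC39A10, ENSECAT00000000090 and ENSECAT00000012496 had it too, though ENSECAT00000026568 did not, and differences in r between groups were not tested. For CLEC7A they were ENSECAT00000006149 (r = 0.88), the kinase STK10 (0.83), ENSECAT00000019582 (0.77), the Ras-binding adaptor RASSF5 (0.76) and the kinase PIM1 (0.76). The 2 sets had no transcript in common, which says little, since sets of 5 drawn from so many transcripts would seldom share any. Between CD80 and CLEC7A themselves r was -0.01, at place 2348 of the 4929 other transcripts for CD80.

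The partners and neighbors of the 2 genes were examined in fixed lists. Symbols were available only for transcripts that the study had listed as changed in these horses. The counts that follow are therefore no independent evidence and give no direction for the pathways as a whole. The study listed many more transcripts as changed in SEA than in MEA. The naming thus favors calls in SEA, and the contrast of SEA with MEA in these counts is not read as a result. Of 3 tested transcripts of costimulation, 3 were called higher in SEA than in CTRL and 0 in MEA, where 15.9% and 3.23% of all transcripts tested were called higher. With normexp 1 of 3 was called in SEA, and without the intensity filter, or with a filter on spots above background, 4 of 6 were called higher and 1 lower in SEA and 1 of 6 higher in MEA. In SEA, CTLA4, the inhibitory receptor for CD80, was higher by 1.43 (SE 0.41, adjusted p 0.0227 in limma). ICOSLG, the ligand of ICOS on T cells, was higher by 1.45, and CD274, the inhibitory ligand PD-L1, which can also bind CD80, by 1.5. In MEA the same transcripts differed from CTRL by 0.47, 0.50 and 0.93, and none passed the test. The median difference of the list was 1.45 in SEA and 0.50 in MEA, against -0.01 and 0.03 over all transcripts tested. Mean levels of the list lay between 3.92 and 6.06 in CTRL, 4.49 and 7.25 in MEA, and 5.73 and 7.42 in SEA. The range in CTRL includes the limit of 4.5 used in the intensity filter, so these transcripts were low there. A transcript below this limit in CTRL could still pass the filter through its levels in the other groups.

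Downstream of CLEC7A, 14 of 14 tested transcripts, of 11 genes, were called higher in SEA than in CTRL (15.9% of all transcripts), with differences between 0.69 and 1.85 and a median of 1.3. The highest was VAV3, an exchange factor that acts below SYK (1.85, SE 0.36, adjusted p 0.00627 in limma), followed by the inflammasome sensor NLRP3 (1.69). The 3 transcripts of VAV1 were higher by 1.2 to 1.27 and PLCG2, the phospholipase that links SYK to calcium and CARD9, by 1.23. The NF-kB subunits REL (1.51), NFKB2 (1.36), RELB (1.24) and NFKB1 (0.88) were higher, as were their inhibitor NFKBIA (1.55) and the kinase IKBKB (0.69). MAP3K14, the kinase of the noncanonical NF-kB route, was higher by 1.32 and 1.57 in its 2 transcripts.

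In MEA, 1 of these 14 transcripts was called higher (3.23% of all transcripts), VAV3 at 0.97 (SE 0.33, adjusted p 0.0899 in limma). This call was lost with normexp, without the intensity filter, with a filter on spots above background, and with the slide as a block. The others differed from CTRL by -0.24 (MAP3K14) to 1.01 (NFKB2), with a median of 0.63 over the list. Between SEA and MEA, 2 of 14 were called higher in SEA (1.32% of all transcripts), both of them MAP3K14, while VAV3 differed by 0.88 (adjusted p 0.163 in limma). CD80 and CLEC7A, with differences of 1.64 and 1.5 in MEA compared with CTRL, lay above every listed partner there. They were chosen for that contrast, so this is not read as a result.

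Among other receptors for microbial patterns, 6 of 6 tested transcripts were called higher in SEA and 0 of 6 in MEA, against 15.9% and 3.23% of all transcripts. CLEC5A, a C-type lectin of myeloid cells, was higher in SEA by 3.32 (SE 0.77, adjusted p 0.0119 in limma). TLR4, the receptor for endotoxin, was higher by 2.36, OLR1, a lectin-like scavenger receptor, by 2.21 and NOD2, a sensor of bacterial cell walls, by 2.16. TLR2 and TLR8 were higher by 1.25 and 1.23. CLEC7A, at 1.93, lay within this range. In MEA the 6 transcripts differed from CTRL by 0.47 (TLR2) to 1.32 (CLEC5A).

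**Figure D5:**
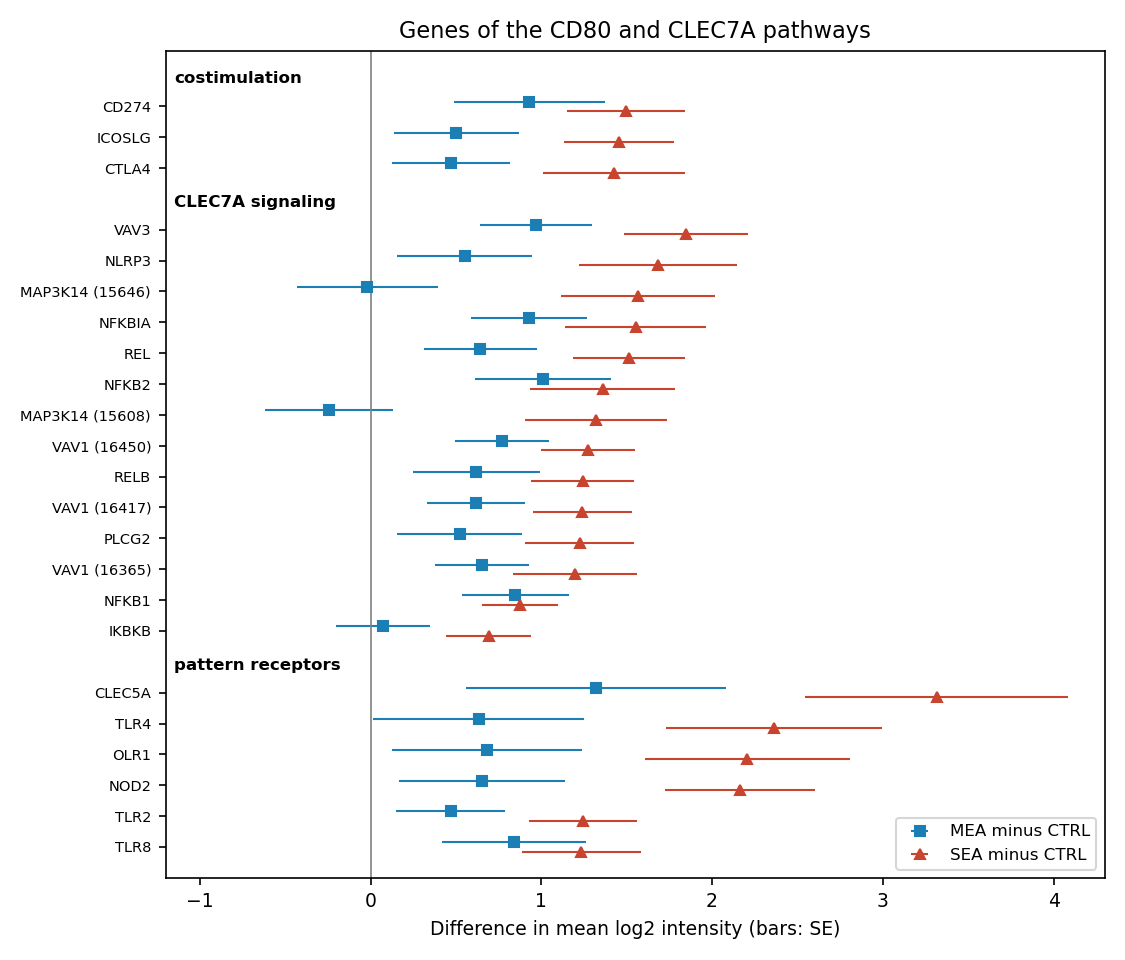
Differences in mean log2 intensity from CTRL, with SE, for the tested transcripts of the costimulation, CLEC7A signaling and pattern receptor lists in MEA (blue squares) and SEA (red triangles); both comparisons use the same 7 CTRL horses, and digits in brackets are the end of the transcript identifier. The SEA values all lie above 0, from 0.69 for IKBKB to 3.32 for CLEC5A, in transcripts that were named because the study listed them as changed.

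Markers of cell types that could carry the 2 genes moved with the groups too, with the same limit on naming; of all transcripts, 3.23% were called higher in MEA and 15.9% in SEA. Of 7 macrophage transcripts, 2 were called higher in MEA, both SIGLEC1 (0.83 and 1.14), and 3 in SEA, MPEG1 (1.59), EMR1 (1.56) and CD68 (0.84). The scavenger receptor MARCO differed by -1.12 in SEA without passing the test. The mean level of the list lay between 7.83 and 9.43 in CTRL, 8.71 and 9.88 in MEA, and 8.83 and 9.80 in SEA. Of 11 dendritic cell transcripts, 0 were called in MEA and 11 in SEA, among them CCR7 (1.83) and CD1E (1.60), and the mean level of 7.08 to 7.83 in SEA lay above the 5.34 to 6.69 in CTRL and overlapped the 5.32 to 7.16 in MEA. Of 6 neutrophil transcripts, 5 were called higher and LTF lower in SEA, while LTF alone was called, lower, in MEA; the mean level lay between 7.19 and 9.93 in CTRL, 8.10 and 12.21 in MEA, and 7.26 and 11.67 in SEA.

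T and NK cell transcripts were called higher in 6 of 12 cases and lower in 1 in SEA, and lower in 1 in MEA, with mean levels between 5.57 and 6.63 in CTRL, 5.23 and 6.95 in MEA, and 5.15 and 7.54 in SEA. Of 9 B cell transcripts, 2 were called higher in SEA, FCRL1 (1.93) and BLK (1.26), and 0 in MEA. The others, all of IGHG4 and IGLC1, were lower in SEA without passing the test. The median difference of the B cell list was -0.58 in SEA and -0.89 in MEA. Its mean levels lay between 6.71 and 11.42 in CTRL, 6.46 and 10.13 in MEA, and 7.08 and 10.35 in SEA. Of all transcripts tested, 6.51% were called lower in MEA and 16.6% in SEA. Ciliated cell transcripts were called lower in 12 of 12 cases in both MEA and SEA, and other epithelial transcripts in 4 of 10 in MEA and 9 of 10 in SEA. The mean of the ciliated list lay between 9.45 and 11.16 in CTRL, 6.13 and 10.56 in MEA, and 4.38 and 9.57 in SEA, and that of the epithelial list between 7.66 and 9.60, 6.12 and 9.16, and 4.46 and 8.39. After adjustment for epithelial cell percentage, MEA minus CTRL was 2.0 for CD80 and 1.65 for CLEC7A, and SEA minus CTRL 1.18 (adjusted p 0.0477 in limma) and 2.02 (adjusted p 0.0211 in limma). The mean counted epithelial percentage was higher in MEA and SEA than in CTRL, opposite to the ciliated and epithelial transcripts. Whether the adjustment accounts for the fall of these transcripts was not tested. The part of the other cell types in the differences of CD80 and CLEC7A was not tested.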

How the data were processed

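RNA of BAL cells from 25 horses was measured on one-color Agilent arrays. The authors deposited a spot intensity table per array, background-corrected by the scanner software and left unscaled between arrays, and a table of intensities after cyclic loess. Here, the deposited scanner intensities were taken as log2 values and passed through cyclic loess (3 iterations, span 0.7). Duplicate spots were then averaged, and a transcript was dropped when 19 or more of the 25 arrays read below 4.5, leaving 4930. Values correlated with the authors' table at r = 0.999. For each comparison limma 3.58.1 (lmFit and eBayes, R 4.3.3) used only the arrays of its own groups, and a call required a fold of at least 1.5 and a p below 0.1 after Benjamini-Hochberg adjustment. Correlations within groups were tested by two-sided permutation of pairings (numpy 2.4.6, with ranks from scipy 1.17.1). The test was exact up to 8 horses and otherwise used 100000 resamples, and p was adjusted over 9 relations. Where a measure was first removed from both sides, the values left over were permuted, so those p-values are approximate. The number of arrays limits precision, and p-values measure the spread between these horses. On single arrays, 58.2% to 90.8% of spots were well above background.

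The members, lists and tests were chosen with earlier results of these data known. Named were CD80 and CLEC7A, tested transcripts of the costimulation and CLEC7A signaling lists, called pattern receptors, the 5 transcripts most correlated with each member, and the neighbors in rank in MEA; cell markers, and the horses named, were chosen after their values were seen. Symbols came from the study's supplementary tables and named 1684 of the tested transcripts. The genome build was not given in the sources used here, so no positions are given. Cell percentages came from the study's cytology. Alternatives were 75th percentile, quantile and normexp (offset 50) processing, the authors' values, other filters, an exact rank sum test, limma with trend and robust settings, 1 fit of all arrays, covariates (sex, epithelial percentage, spots well above background), blocks (slide, scan date, replicate number) and leaving out each horse.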

Additional observations from a re-analysis of the deposited data

Results flagged for a closer look

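In the list of CLEC7A signaling genes, the difference from CTRL was larger in SEA than in MEA for the 2 transcripts of MAP3K14. SEA minus MEA was 1.56 (SE 0.37, adjusted p 0.0712 in limma) for ENSECAT00000015608 and 1.59 (SE 0.41, adjusted p 0.0857 in limma) for ENSECAT00000015646. Neither was called with scaling to the 75th percentile, with normexp or with the slide as a block, and 1 of them was called with quantile normalization. No CD80 or CLEC7A value in a group stood apart from the others by Dixon's test, which was run on each group. The test sets the outermost value against its nearest neighbor, so low horses that lie together can hide each other. It could therefore not flag a low set such as SEA replicates 5, 6 and 7 in CD80.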

How the results depend on the processing

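The differences of CD80 and CLEC7A kept their direction, and those tested their side of the call limits, under all 15 alternatives and with any 1 horse left out. Under the 15 alternatives, MEA minus CTRL lay between 1.22 and 2.0 for CD80 and 0.88 and 1.65 for CLEC7A. SEA minus CTRL lay between 0.87 and 1.27 (adjusted p 0.0127 to 0.0575 in limma) and between 1.21 and 2.03 (0.0075 to 0.0213), and SEA minus MEA between -0.65 and -0.29 and between 0.32 and 0.52. With 1 horse left out, MEA minus CTRL lay between 1.47 and 1.84 and between 1.07 and 1.699, SEA minus CTRL between 1.05 and 1.43 (adjusted p up to 0.0643 in limma) and between 1.5 and 2.11 (up to 0.0384), and SEA minus MEA between -0.61 and -0.28 and between 0.23 and 0.61. The replicate number did not pair the horses (same-numbered horses correlated above 0.1 in 4 of 7, 3 of 7 and 3 of 8 pairs). With it as a replicate block, MEA minus CTRL was 1.54 for CD80 and 1.35 for CLEC7A, SEA minus CTRL 1.05 and 2.03, SEA minus MEA -0.29 and 0.52, and the calls over all transcripts numbered 136, 1348 and 0. In place of 480 calls, MEA minus CTRL gave 156 with normexp, 171 and 216 with the slide and the scan date as a block, and 0 with epithelial percentage as a covariate. SEA minus CTRL gave 874 in place of 1601 with normexp, and SEA minus MEA, 101 calls, ranged from 0 (75th percentile scaling and slide block) to 265 (all 25 arrays in 1 fit), with 8 for normexp, 24 for quantile normalization, 25 for the exact rank sum test, 2 for the scan date block, 37 with epithelial percentage and 166 and 188 with the share of spots well above background and sex as covariates. Leaving out 1 horse gave 157 (without CTRL replicate 1) to 740 (without MEA replicate 7) calls for MEA minus CTRL, with over 1.5 times fewer also without CTRL replicates 4 (189) and 6 (180) and MEA replicates 2 (290), 5 (299), 9 (308) and 10 (317). For SEA minus CTRL it gave 1230 to 1693. For SEA minus MEA it gave 2 (without SEA replicate 2 or MEA replicate 9) to 554 (without MEA replicate 3), and each of the 18 horses moved it by over 1.5 times. Scaling to the 75th percentile moved the median of all transcripts in SEA minus MEA to -0.11.

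The correlations were less stable, and the cause was not tested. Between CD80 and CLEC7A in CTRL, r was -0.18 with the slide removed and -0.28 with macrophage percentage removed, and -0.13 to 0.25 with 1 horse left out. In MEA it lay between -0.53 and 0.71 with 1 horse left out. In SEA it was -0.80 with the share of spots well above background removed (adjusted approximate permutation p 0.257) and -0.73 with macrophage percentage removed. It was -0.58 in SEA with the first spot of each probe alone, and -0.95 to -0.85 with 1 horse left out. CD80 against macrophage percentage in CTRL lay between -0.83 and 0.051 with 1 horse left out. CLEC7A against macrophage percentage in CTRL was -0.97 with the slide removed (adjusted approximate permutation p 0.0112), which leaves few degrees of freedom. List counts moved in 13 of 126 cases.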
